A study of Mus musculus with 4 samples.

Results

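Klrb1 receptors and Clec2 ligands, 8 of the 19339 genes listed, were described in sorted small intestinal TCRαβ+CD8αα+ intraepithelial lymphocytes (IELs), gut T cells with an αβ receptor and a CD8 made of paired α chains. The genes were taken by name: the 5 receptor genes Klrb1, Klrb1a, Klrb1b, Klrb1c and Klrb1f, and the 3 ligand genes Clec2d, Clec2h and Clec2i. RNA-seq was made of 4 libraries, with 2 labelled Kdm6b F/F, the control, and 2 labelled Kdm6b F/F-CD4Cre, Kdm6b-deficient, each group holding the replicate numbers 1 and 3. All mice were on the C57BL/6 background, both groups carry the loxP-flanked Kdm6b allele, and their ages were not given in the sources used here. In Kdm6b F/F-CD4Cre mice the Cre recombinase is driven by the CD4 promoter, which is active in developing thymocytes and therefore also in other αβ T cell lineages. Cells were sorted as CD45+CD4−TCRβ+CD8α+CD8β−, and RNA of 3 mice of a genotype was pooled for each library, so the spread between libraries is a spread between pools, and p-values measure no other variation. The question was whether the receptor and ligand genes differ in expression between the genotypes. Expression is given as FPKM, a fragment number corrected for the length of the transcript and for the size of the library, so levels can be compared between genes.

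NKR-P1 receptors, which the Klrb1 genes encode, are C-type lectin-like proteins of NK cells and of some T cells. Activating members pair with the FcRγ chain (Fcer1g) and can carry a short cysteine and proline motif that recruits the kinase Lck, whereas inhibitory members carry an immunoreceptor tyrosine-based inhibitory motif (ITIM) that recruits the phosphatase SHP-1 (Ptpn6). Their ligands are the Clr proteins, which the Clec2 genes encode: Clr-b (Clec2d) engages NKR-P1B, Clr-g (Clec2i) engages NKR-P1F and NKR-P1G, and Clr-f (Clec2h), known from gut epithelial cells, engages NKR-P1G.

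The receptor and ligand genes are interleaved on chromosome 6, between positions 128609227 and 129186535 of GRCm38.p6, over 577 kb. In RefSeq order from the lower coordinate they are Klrb1a, Clec2h, Klrb1, Klrb1c, Klrb1b, Clec2i, Klrb1f and Clec2d. All 8 were above 0 in all 4 libraries, and all 8 passed the filter of at least 1 FPKM in at least 2 libraries. Of 27 genes annotated across the interval, 13 were listed, and 5 of these are not among the 8: Clec2j, BC035044, Clec2g, Clec2f and Clec2e. Levels differed widely along the interval, from Klrb1a with a mean of 102 FPKM to Clec2f, Clec2g and Clec2j, which were listed at 0 in 2 or 3 of the 4 libraries and at 0.13 FPKM or less in the others.

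**Figure D1:**
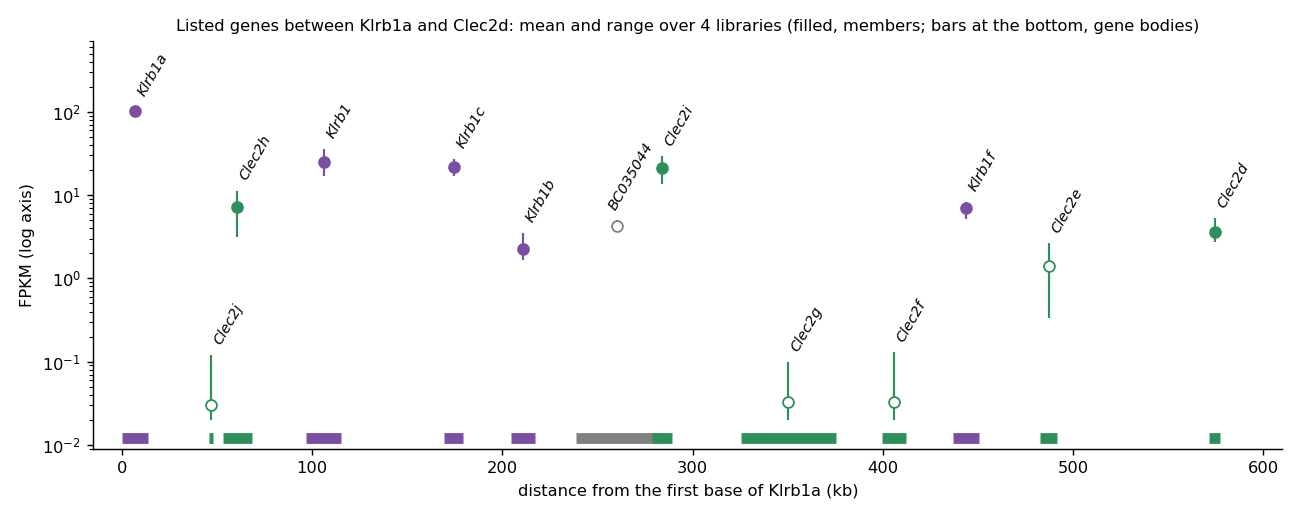
FPKM (log axis) of the 13 listed genes between Klrb1a and Clec2d against distance from the first base of Klrb1a in kb, as the mean (circle, filled for the 8 genes described) and the range (line) over 4 libraries, with Klrb1 genes in purple, Clec2 genes in green and BC035044 in grey. Ranges that reach 0 are drawn down to the bottom end of their line at 0.02, and the highest mean is that of Klrb1a at 102 FPKM.

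The receptors differ where their coding sequence encodes the cytoplasmic tail, and this stretch is shown because it holds the motifs by which activating and inhibitory receptors are told apart, and because it shows how alike Klrb1a and Klrb1c are. Each line gives 120 coding bases of the GENCODE M21 transcript (GRCm38), 5′ to 3′, from the in-frame start codon nearest before the motif. Capitals mark the codons of the CxCP motif, near the end of the stretch, and of an ITIM-like pattern, near its beginning.
Klrb1a: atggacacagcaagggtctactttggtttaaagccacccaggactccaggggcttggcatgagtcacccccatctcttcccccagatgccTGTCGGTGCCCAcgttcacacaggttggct
Klrb1c: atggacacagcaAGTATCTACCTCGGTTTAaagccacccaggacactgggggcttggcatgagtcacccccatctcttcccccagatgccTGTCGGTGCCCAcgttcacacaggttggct
Klrb1f: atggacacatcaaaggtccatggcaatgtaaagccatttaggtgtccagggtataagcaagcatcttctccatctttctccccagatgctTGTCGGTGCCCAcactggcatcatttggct
Klrb1b: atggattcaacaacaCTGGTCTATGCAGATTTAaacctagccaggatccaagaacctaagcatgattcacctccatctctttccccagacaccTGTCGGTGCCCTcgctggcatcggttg
Klrb1: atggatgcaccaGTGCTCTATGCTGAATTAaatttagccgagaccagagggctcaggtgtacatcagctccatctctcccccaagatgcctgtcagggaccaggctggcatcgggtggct
CxCP codons were found in Klrb1a, Klrb1c, Klrb1f and Klrb1b, and ITIM-like codons in Klrb1, Klrb1b and Klrb1c. Klrb1c is known as an activating receptor, and a match of letters is a description and not a functional site. Position by position, Klrb1c had the same base as Klrb1a at 113 of 120 positions, against 83 for Klrb1f. Over the whole coding sequence, Klrb1a and Klrb1c were 92.6% identical, Klrb1a and Klrb1b 85.5%, and Klrb1 and Klrb1f 82.0%. Exact copies of 50-base windows occurred in another listed gene for 20.8% of the windows of Klrb1a, 13.2% of Klrb1c and 15.2% of Klrb1b, and for 0 of those of Klrb1 and Klrb1f. With windows of 100 bases the share was 1.5% or less for each of these genes. The read length was not given in the sources used here, so the division of reads among Klrb1a, Klrb1b and Klrb1c is less certain than for the other receptors. Among the ligand genes, Clec2i and Clec2d were 86.3% identical, and 50-base copies in another listed gene made up 10.8% of the windows of Clec2i, 8.93% of Clec2h and 4.02% of Clec2d. In GENCODE M21, Klrb1f also overlaps Gm44000 on the opposite strand by 2559 bases, and Klrb1b and Klrb1c lie partly or wholly within Gm44511 on the same strand. Neither Gm44000 nor Gm44511 was analysed here.

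Kdm6b, the targeted gene, was examined first as a check of the labels. Its level in Kdm6b F/F was 16.5 FPKM (replicate 1) and 16.0 FPKM (replicate 3), and under the label Kdm6b F/F-CD4Cre it was 18.2 FPKM (replicate 1) and 11.1 FPKM (replicate 3). The groups overlapped, with a log2 fold change of −0.18 (SE 0.29, adjusted p 0.886 by limma). The gene-level value does not separate the floxed part of the gene from the rest, so it checks the labels only in part, and directions below are those of the libraries as labelled. Cd8a ranged from 280 to 463 FPKM and Cd8b1 was at 1.64 FPKM or less, as the sort requires, while Cd4 was at 30.6 and 10.1 FPKM in Kdm6b F/F and at 30.5 and 3.17 FPKM in Kdm6b F/F-CD4Cre. All 22 epithelial marker genes were above 0 in every library. Their summed levels were 1865 and 7493 FPKM in Kdm6b F/F and 5619 and 15796 FPKM in Kdm6b F/F-CD4Cre. Log2 fold changes were positive for all 22, with a median of 1.32 beside 0.00 over all genes tested. The libraries of the groups overlapped for most, and 4 of the 22 were higher in both Kdm6b F/F-CD4Cre libraries, beside 18.4% of all genes tested. The 5 T cell genes (Cd3d, Cd3e, Cd3g, Cd247 and Ptprc) summed to 3547 and 2837 FPKM against 2886 and 2058 FPKM, and 2 of the 5 were lower in both, beside 18.6% of all genes. The 8 myeloid and dendritic cell genes summed to 2438 and 1741 FPKM against 3921 and 3082 FPKM, and 6 of the 8 were higher in both. Of 8 NK cell genes, 3 reached 1 FPKM in at least 2 libraries (Gzma, Irf8 and Fcgr3, which other cells also express), and the defining genes were low: Eomes was at 0.16 FPKM or less and Ncr1 at 0.26 FPKM or less except for 2.48 FPKM in Kdm6b F/F-CD4Cre replicate 1. The 5 B cell genes summed to between 31.5 and 38.6 FPKM, mostly Cd79b, and the 2 γδ T cell genes analysed to at most 1.98 FPKM. In bulk samples, fewer cells of a type and less RNA per cell cannot be told apart.

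Of the 8 genes, Clec2i and Clec2d were those whose libraries separated by genotype. Clec2i, the ligand gene for NKR-P1F and NKR-P1G, was lower in Kdm6b F/F-CD4Cre, at 14.96 ± 2.09 FPKM against 27.5 ± 2.16 FPKM (SD, n = 2), and Clec2d, the ligand gene for NKR-P1B, was higher, at 4.42 ± 1.17 FPKM against 2.87 ± 0.184 FPKM (SD, n = 2). The 5 receptors and Clec2h overlapped between the genotypes in the FPKM as deposited. None of these differences passed the test across all genes in the fit by genotype alone. In that fit, limma on log2(FPKM + 1) called 0 of 12009 genes tested at an adjusted p under 0.05 (0%), with 642 (5.35%) at an unadjusted p under 0.05, of which 186 (1.55%) were lower and 456 (3.8%) higher in Kdm6b F/F-CD4Cre. Accordingly 0 of the 8 were called, and 1 of the 8, Clec2i, was under 0.05 without adjustment. An exact permutation test of 2 against 2 libraries cannot give a two-sided p below 0.333, so none was run for single genes. By size, 797 genes (6.64%) passed a log2 fold change of 1 in either direction, 744 (6.2%) of them higher and 53 (0.441%) lower, and none of the 8 did. Both Kdm6b F/F-CD4Cre libraries were lower than both Kdm6b F/F libraries for 2230 genes (18.6%) and higher for 2208 (18.4%). Among the 8, Clec2i was lower in both and Clec2d higher in both, whereas the groups overlapped for the other 6, a share of separated genes near that of all genes. The median log2 fold change was −0.10 over the 5 receptors and 0.47 over the 3 ligands, beside 0.00 over all genes tested.

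**Figure D2:**
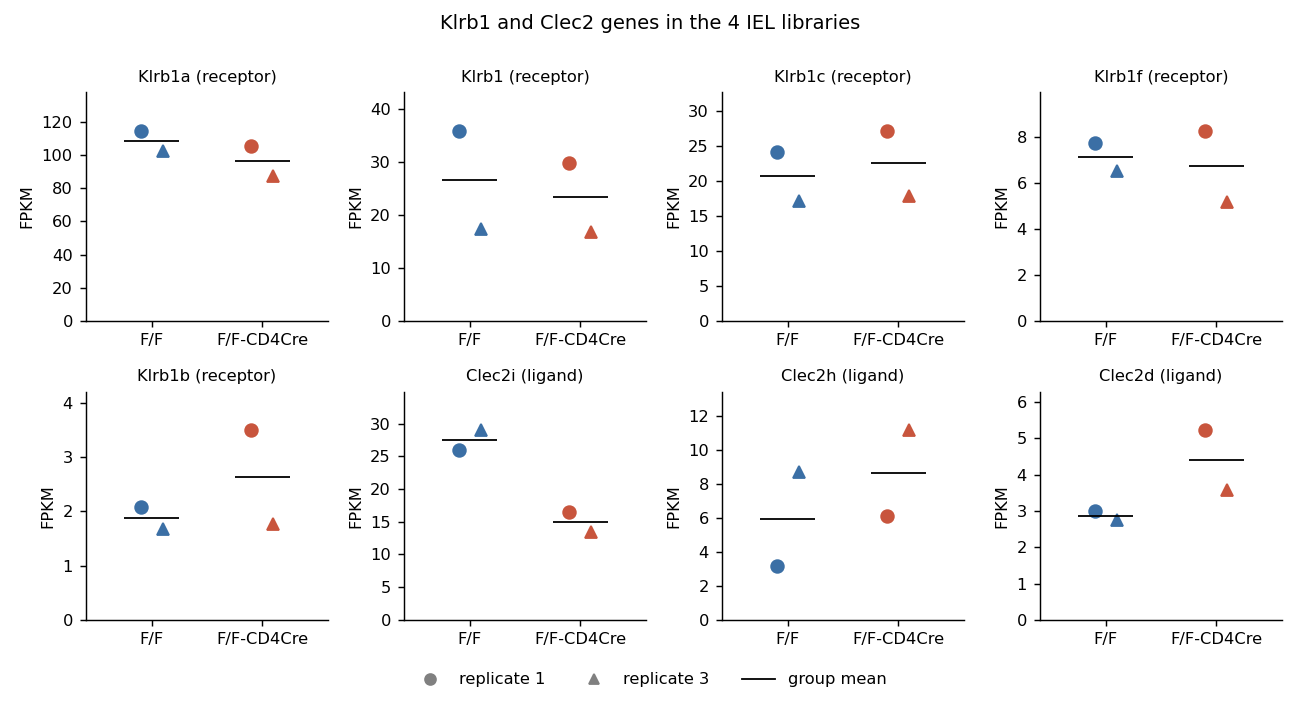
FPKM of the 5 receptor and 3 ligand genes, 1 panel each with its own axis from 0, in replicate 1 (circle) and replicate 3 (triangle) of Kdm6b F/F (blue) and Kdm6b F/F-CD4Cre (red), with the group mean as a line. Clec2i is lower and Clec2d higher in both Kdm6b F/F-CD4Cre libraries, the groups overlap in the other panels, and each receptor has its triangle below its circle in both genotypes.

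Klrb1a (Entrez 17057, chr6:128609227-128622934 of GRCm38.p6, minus strand) encodes NKR-P1A, an activating receptor, and was by far the most abundant gene of the family. Kdm6b F/F replicate 1 had 115 FPKM and replicate 3 had 102 FPKM, while Kdm6b F/F-CD4Cre replicate 1 had 105 FPKM and replicate 3 had 87.3 FPKM. The groups overlapped, since Kdm6b F/F replicate 3 lay between the Kdm6b F/F-CD4Cre libraries. The log2 fold change was −0.18 (SE 0.19, 95% interval −0.64 to 0.29, adjusted p 0.829 by limma). Klrb1a ranked 1040th of the 19339 genes by mean level and held between 60.5% and 70.6% of the summed receptor FPKM in each library. Its lowest library was above the highest library of any other receptor.

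Klrb1c (Entrez 17059, chr6:128778485-128788641 of GRCm38.p6, minus strand) encodes the NK1.1 antigen, by which NK cells of C57BL/6 mice are recognised. Its levels were 24.2 and 17.1 FPKM in Kdm6b F/F (replicate 1, then 3) and 27.2 and 17.8 FPKM in Kdm6b F/F-CD4Cre. The replicate 1 libraries were high and the replicate 3 libraries low in both genotypes, and the groups overlapped, with a log2 fold change of 0.11 (SE 0.30, 95% interval −0.64 to 0.85, adjusted p 0.939 by limma). Ncr1, an NK cell receptor gene, was at 2.48 FPKM in Kdm6b F/F-CD4Cre replicate 1, where Klrb1c was highest, and at 0.13 to 0.26 FPKM in the others. None of the other NK cell genes analysed was highest in that library. Gzma, for example, was at 11316 FPKM there against 17390 FPKM in Kdm6b F/F replicate 1, and Irf8 at 107 against 112 FPKM. The TCRβ+ gate would remove NK cells, and the part of Ncr1-expressing cells in the values of Klrb1c was not tested.

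Klrb1f (Entrez 232408, chr6:129045837-129059724 of GRCm38.p6, plus strand) encodes NKR-P1F, an activating receptor whose ligands include Clr-g. It had 7.75 and 6.54 FPKM in Kdm6b F/F and 8.30 and 5.17 FPKM in Kdm6b F/F-CD4Cre. The Kdm6b F/F-CD4Cre libraries were both the highest and the lowest of the 4, and the log2 fold change was −0.10 (SE 0.32, 95% interval −0.91 to 0.71, adjusted p 0.948 by limma).

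Klrb1 (Entrez 100043861, chr6:128706093-128724330 of GRCm38.p6, minus strand) encodes NKR-P1G, an inhibitory receptor for Clr-f and Clr-g, and was the second receptor by mean level. Its levels were 36.0 and 17.3 FPKM in Kdm6b F/F (replicate 1, then 3) and 29.9 and 16.7 FPKM in Kdm6b F/F-CD4Cre. Both replicate 1 libraries were above both replicate 3 libraries, so the values separated by replicate number rather than by genotype. The log2 fold change was −0.15 (SE 0.43, 95% interval −1.23 to 0.93, adjusted p 0.939 by limma). Cd4, which the sort gate excludes, also was higher in both replicate 1 libraries (30.6 and 30.5 FPKM) than in both replicate 3 libraries (10.1 and 3.17 FPKM). Its part in the values of Klrb1 was not tested.

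Klrb1b (Entrez 80782, chr6:128813706-128826315 of GRCm38.p6, minus strand) encodes NKR-P1B, the inhibitory receptor for Clr-b, and was the lowest of the receptors. It had 2.08 and 1.67 FPKM in Kdm6b F/F and 3.51 and 1.76 FPKM in Kdm6b F/F-CD4Cre. Kdm6b F/F-CD4Cre replicate 1 stood above the other 3, which lay between 1.67 and 2.08 FPKM, and the log2 fold change was 0.30 (SE 0.38, 95% interval −0.64 to 1.24, adjusted p 0.853 by limma). Without that library the fold change was −0.06. Ncr1 was highest in the same library, and no other NK cell gene analysed was. The gate would remove NK cells, and the part of Ncr1-expressing cells in the value of Klrb1b was not tested.

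All 5 receptors were lower in replicate 3 than in replicate 1 of the same genotype. The share of all genes that did so was not counted, and the deviations of same-numbered libraries had a correlation of 0.56 across genes. On the log2 scale the difference of replicate 3 from replicate 1 ran from −0.17 (Klrb1a) to −1.01 (Klrb1) in Kdm6b F/F and from −0.27 (Klrb1a) to −0.80 (Klrb1) in Kdm6b F/F-CD4Cre. The T cell genes moved the same way, with a mean level relative to Kdm6b F/F replicate 1 of 0.829 in Kdm6b F/F replicate 3, 0.832 in Kdm6b F/F-CD4Cre replicate 1 and 0.556 in Kdm6b F/F-CD4Cre replicate 3. Relative to the summed T cell genes, a scale on which 35.1% of all genes tested were higher in both Kdm6b F/F-CD4Cre libraries and 3.29% lower, 4 of the 5 receptors were higher in both: Klrb1a was at 3.24% and 3.61% in Kdm6b F/F against 3.65% and 4.24%, Klrb1c at 0.682% and 0.604% against 0.942% and 0.864%, Klrb1f at 0.219% and 0.231% against 0.288% and 0.251%, and Klrb1b at 0.0586% and 0.0589% against 0.122% and 0.0855%. Klrb1 overlapped between the groups on that scale. In the fit scaled to the T cell genes, the log2 fold changes of Klrb1a (0.24) and Klrb1f (0.26) lay below the median of all genes, 0.38. Summed receptor levels were 165 ± 28.2 FPKM in Kdm6b F/F and 151 ± 32.2 FPKM in Kdm6b F/F-CD4Cre (SD, n = 2), a difference smaller than the spread within either group. Scaled to the T cell genes, the sums were 142 ± 5.61 and 174 ± 12.4 (SD, n = 2), higher in both Kdm6b F/F-CD4Cre libraries. In the order of mean levels, Klrb1a lay above Klrb1 and Klrb1c, whose ranges overlapped, and Klrb1f lay below these and above Klrb1b with no overlap.

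Clec2i (Entrez 93675, chr6:128887587-128898168 of GRCm38.p6, plus strand) encodes Clr-g, the ligand that NKR-P1F and NKR-P1G share, and was the most abundant ligand gene. Kdm6b F/F replicate 1 had 26.0 FPKM and replicate 3 had 29.1 FPKM, while Kdm6b F/F-CD4Cre replicate 1 had 16.4 FPKM and replicate 3 had 13.5 FPKM. Both Kdm6b F/F-CD4Cre libraries were below both Kdm6b F/F libraries, by a gap larger than the spread within either group. The ratio of the group means was 0.543 and the log2 fold change −0.84 (SE 0.22, 95% interval −1.39 to −0.30, unadjusted p 0.00979, adjusted p 0.755 by limma). This was the 92nd smallest p and the 112th lowest fold change of 12009, and it did not pass adjustment in the fit by genotype alone. Because the groups separated, the direction was the same in all 4 pairs of libraries, as for the 18.6% of all genes lower in both.

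The T cell and epithelial marker levels also differed between these libraries, and Clec2i was set beside them. Relative to the summed T cell genes, Clec2i was at 0.734% and 1.02% in Kdm6b F/F and at 0.569% and 0.655% in Kdm6b F/F-CD4Cre, and the groups did not overlap (3.29% of all genes were lower in both on this scale), by a gap smaller than the spread within Kdm6b F/F. In a fit with the libraries scaled to the T cell genes, where the median of all genes was 0.38, the log2 fold change of Clec2i was −0.44, with an unadjusted p of 0.234 and an adjusted p of 0.653 by limma. With the epithelial score as a covariate it was −0.81, with an unadjusted p of 0.0077 and an adjusted p of 0.223 by limma. With 4 libraries and an added term, that fit took the spread of a gene mainly from all genes together. The part of T cell or epithelial content in the values of Clec2i was not tested. Clec2i overlaps BC035044 on the opposite strand by 3539 bases, and whether the libraries keep strand was not given in the sources used here. BC035044 was at 3.76 and 4.39 FPKM in Kdm6b F/F and 4.98 and 3.98 FPKM in Kdm6b F/F-CD4Cre, with overlapping groups.

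Clec2h (Entrez 94071, chr6:128662385-128677374 of GRCm38.p6, plus strand) encodes Clr-f. Kdm6b F/F replicate 1 had 3.14 FPKM and replicate 3 had 8.68 FPKM, while Kdm6b F/F-CD4Cre replicate 1 had 6.12 FPKM and replicate 3 had 11.2 FPKM. The groups overlapped, and both replicate 3 libraries were above both replicate 1 libraries, opposite to the receptors within each genotype. The log2 fold change was 0.56 (SE 0.51, 95% interval −0.72 to 1.83, adjusted p 0.807 by limma), and without Kdm6b F/F replicate 1 it was −0.06. Relative to Kdm6b F/F replicate 1, Clec2h was at 1.95 in Kdm6b F/F-CD4Cre replicate 1, 2.76 in Kdm6b F/F replicate 3 and 3.56 in Kdm6b F/F-CD4Cre replicate 3. The mean of the 22 epithelial markers had the same order of libraries, at 2.62, 2.98 and 6.73. With the epithelial score as a covariate, the fold change of Clec2h was −0.33. The part of epithelial RNA in the values of Clec2h was not tested.

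Clec2d (Entrez 93694, chr6:129180615-129186535 of GRCm38.p6, plus strand) encodes Clr-b, which is made by many cells of the blood lineage. It had 3.0 and 2.74 FPKM in Kdm6b F/F and 5.24 and 3.59 FPKM in Kdm6b F/F-CD4Cre. Both Kdm6b F/F-CD4Cre libraries were higher, mainly replicate 1, with a log2 fold change of 0.47 (SE 0.32, 95% interval −0.33 to 1.27, adjusted p 0.765 by limma). Clec2d has a single annotated transcript, and its values correspond to about 46 and 41 fragments in Kdm6b F/F and 80 and 46 in Kdm6b F/F-CD4Cre. With a relative depth of 0.83 in Kdm6b F/F-CD4Cre replicate 3 and of 0.977 or more in the others, the exact 95% Poisson intervals are best compared as FPKM: 2.21 to 4.02 and 1.97 to 3.73 in Kdm6b F/F, and 4.15 to 6.52 and 2.66 to 4.84 in Kdm6b F/F-CD4Cre. Replicate 1 of Kdm6b F/F-CD4Cre did not overlap the Kdm6b F/F libraries and replicate 3 did, and these intervals cover counting error only. Like Clec2d, 6 of 8 myeloid and dendritic cell genes were higher in both Kdm6b F/F-CD4Cre libraries (18.4% of all genes were higher in both). Of these 6, Lyz2 and Zbtb46 were highest in Kdm6b F/F-CD4Cre replicate 3, and the rest, like Clec2d, in its replicate 1. The TCRβ+CD8α+ gate would remove myeloid and dendritic cells, and their part in the values of Clec2d was not tested.

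**Figure D3:**
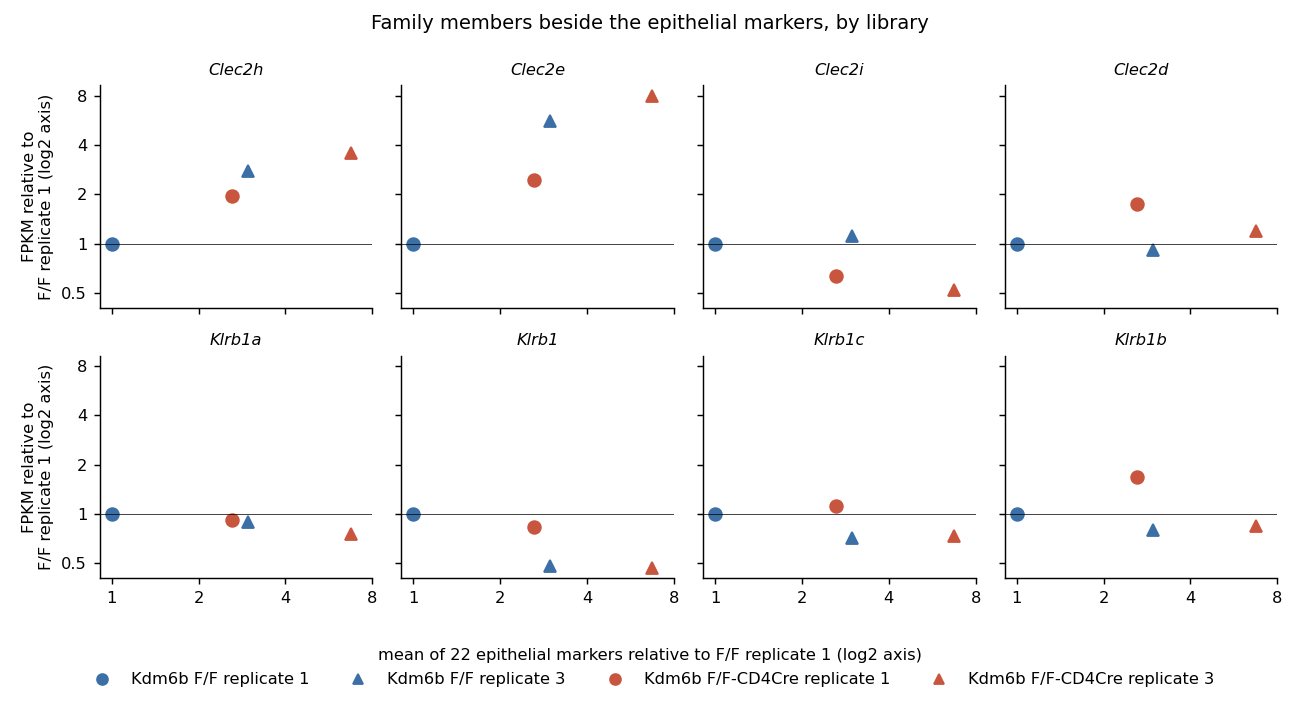
Level of 8 family genes against the mean of 22 epithelial marker genes, both relative to Kdm6b F/F replicate 1 (log2 axes), in Kdm6b F/F (blue) and Kdm6b F/F-CD4Cre (red), replicate 1 (circle) and replicate 3 (triangle). Clec2h and Clec2e have the same order of libraries as the markers, up to 3.56 and 8.03, while Clec2i and Klrb1a end below 1 in the library with the highest epithelial level.

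Summed ligand levels were 36.3 ± 5.89 FPKM in Kdm6b F/F and 28.0 ± 0.325 FPKM in Kdm6b F/F-CD4Cre (SD, n = 2), with both Kdm6b F/F-CD4Cre libraries lower. Scaled to the T cell genes, the sums were 31.9 ± 9.28 and 33.1 ± 9.72 (SD, n = 2), and the groups overlapped. The make-up of the sum differed: Clec2i held 80.9% and 71.8% of it in Kdm6b F/F and 59.1% and 47.7% in Kdm6b F/F-CD4Cre. Clec2h held between 9.76% (Kdm6b F/F replicate 1) and 39.6% (Kdm6b F/F-CD4Cre replicate 3). In the order of mean levels Clec2i lay above Clec2h with no overlap over the 4 libraries, whereas the ranges of Clec2h and Clec2d overlapped.

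Clec2e, which encodes Clr-a, is the other Clec2 gene of the interval that passed the filter. Its levels were 0.33 and 1.84 FPKM in Kdm6b F/F (replicate 1, then 3) and 0.81 and 2.65 FPKM in Kdm6b F/F-CD4Cre, or about 9 and 50, and 23 and 62 fragments. Its libraries had the same order as those of Clec2h and of the epithelial markers, the groups overlapped, and the log2 fold change was 0.40 (SE 0.55, adjusted p 0.860 by limma). Because Clec2h and Clec2e had the same order of libraries, their promoters were compared with those of the other ligand genes. The RefSeq promoter windows, from 250 bases before to 50 bases after the start, were 89.7% identical between Clec2h and Clec2e (252 of 281 aligned bases), against 56.6% to 66.5% for every other pair of Clec2i, Clec2h, Clec2d and Clec2e. The coding sequences of Clec2h and Clec2e were 83.9% identical. The promoter windows of Klrb1a and Klrb1c were 90.8% identical, while the libraries of these receptors had different orders. A link between promoter likeness and library order was not tested. The 250 bases before each start are given 5′ to 3′ (GRCm38.p6), Clec2h at chr6:128662135-128662384 on the plus strand, Clec2e at chr6:129100904-129101153 on the minus strand and Clec2i at chr6:128887337-128887586 on the plus strand. Capitals mark TTTATNG, a motif of the Cdx homeobox factors of gut epithelium, and the reverse complement of TGATAA, a motif known for factors of the Gata family.
Clec2h: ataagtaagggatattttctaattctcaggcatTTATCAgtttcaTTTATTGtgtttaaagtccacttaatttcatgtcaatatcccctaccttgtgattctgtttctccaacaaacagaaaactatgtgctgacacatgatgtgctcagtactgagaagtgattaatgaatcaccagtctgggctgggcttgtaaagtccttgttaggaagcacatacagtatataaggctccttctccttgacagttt
Clec2e: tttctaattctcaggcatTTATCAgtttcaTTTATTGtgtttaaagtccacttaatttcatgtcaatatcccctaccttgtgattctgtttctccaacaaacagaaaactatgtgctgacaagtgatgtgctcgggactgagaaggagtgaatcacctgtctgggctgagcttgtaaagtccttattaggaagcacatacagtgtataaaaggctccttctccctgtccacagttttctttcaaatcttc
Clec2i: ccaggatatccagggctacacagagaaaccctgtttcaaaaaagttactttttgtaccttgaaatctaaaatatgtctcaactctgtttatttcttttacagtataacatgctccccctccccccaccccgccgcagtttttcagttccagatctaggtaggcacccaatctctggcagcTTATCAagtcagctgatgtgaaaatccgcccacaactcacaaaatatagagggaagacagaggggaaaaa
TTTATNG was found in Clec2h from −205 to −199 and in Clec2e from −220 to −214 relative to the start, and was not in the windows of Clec2i and Clec2d. TGATAA was found on the minus strand of Clec2h, Clec2e and Clec2i, and did not overlap TTTATNG in any of them. Of 32851 mouse promoter windows of the same length searched on both strands, 10.9% held TTTATNG and 9.05% held TGATAA. Of the other 4 motifs searched, GGAAGT (23.8% of all windows) was found once in Clec2e after the start, and CAAAGTCCA (0.47%), TGTGGT (16.8%) and AGGTGTGA (1.28%) in none of the Clec2 windows compared. All 6 motifs were chosen after the values were seen, and a match is a description of letters and not of binding.

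The downstream genes of NKR-P1 signalling were taken from a list. None of the 7 family and pathway genes tested was called, beside 0 of all 12009 genes tested. Fcer1g, the FcRγ adaptor of the activating receptors, had 1785 and 1367 FPKM in Kdm6b F/F and 1357 and 852 FPKM in Kdm6b F/F-CD4Cre (log2 fold change −0.54, SE 0.32, adjusted p 0.757 by limma). Lck had 915 and 793 FPKM against 753 and 461 FPKM (−0.53, SE 0.30, adjusted p 0.755 by limma). Both were lower in both Kdm6b F/F-CD4Cre libraries, beside 18.6% of all genes tested. Zap70, a kinase of the T cell receptor, had 374 and 263 FPKM against 243 and 187 FPKM (−0.55), and Ptpn6, the phosphatase of the inhibitory receptors, had 340 and 311 FPKM against 287 and 226 FPKM (−0.35). These 4 genes were lower beside T cell genes whose median log2 fold change was −0.37, and the part of T cell content in them was not tested. Syk, a kinase that FcRγ can recruit and that is typical of myeloid and B cells, was higher in both Kdm6b F/F-CD4Cre libraries. Its levels were 3.36 and 2.69 FPKM against 5.24 and 4.53 FPKM (0.55, SE 0.30, adjusted p 0.755 by limma), and 18.4% of all genes were higher in both. Ptpn11, which encodes the phosphatase SHP-2, overlapped between the groups (11.4 and 8.11 FPKM against 11.0 and 8.56 FPKM). Clec2f, Clec2g, Clec2j and Clec2l were at 0.16 FPKM or less and were not tested. Klrb1-ps1 and Clec2m were not analysed here.

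**Figure D4:**
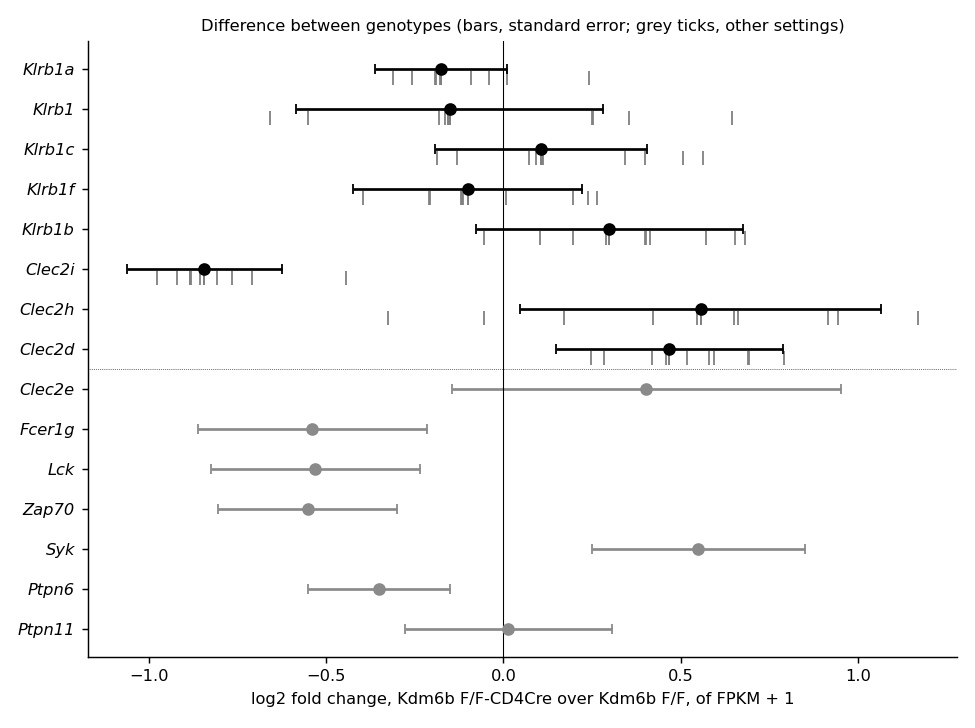
Log2 fold change of FPKM + 1, Kdm6b F/F-CD4Cre over Kdm6b F/F, with its standard error (bars), for the 8 receptor and ligand genes (black) and 7 family and pathway genes (grey). Grey ticks give the 8 genes under other settings: those of Clec2i run from −0.98 to −0.44 and those of Clec2d from 0.25 to 0.79, while those of the other 6 lie on both sides of 0.

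By likeness of profile, measured as the Euclidean distance between mean-centred log2(FPKM + 1) values over the 4 libraries, the genes nearest to Klrb1a were Rnf34 (distance 0.0142), Sap130, Nle1, Rnaseh1 and Eapp. Those nearest to Clec2i were Idua (0.136), Simc1, Trim5, Phf11 and Gm42226. Idua, for example, had 10.1 and 11.8 FPKM in Kdm6b F/F and 6.39 and 5.76 FPKM in Kdm6b F/F-CD4Cre. With 4 libraries and 12009 genes, such lists describe these libraries only.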

How the data were processed

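The deposited values are FPKM for 19339 genes per library, with 2 decimals. The authors obtained them with RSEM (1.2.8) after alignment by HISAT and Bowtie2 (2.2.5) to mm10, with versions per the submitters' processing notes, which also name GRCm38.p5. The gene annotation, read length and strand were not given in the sources used here.

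Entrez identifiers were matched to RefSeq of GRCm38.p6 (18467 matched, all 8 genes described included). Genes had to reach 1 FPKM in 2 or more libraries, and log2(FPKM + 1) values of the 12009 that did were fitted by genotype with limma 3.58.1 (lmFit, eBayes with a trend, R 4.3.3) and adjusted by Benjamini-Hochberg over all genes tested. The fit was tested on simulated data. Fold changes understate the change of low genes because of the pseudocount.

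Read counts were not used here. Steps in low FPKM multiplied by length gave a relative depth of 1, 0.977, 1 and 0.83 for Kdm6b F/F replicates 1 and 3 and Kdm6b F/F-CD4Cre replicates 1 and 3. Fragments from these steps are given only for genes with 1 transcript, and are approximate.

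The genes described, the marker and pathway lists and the alternatives were chosen with earlier results of these data known. Named genes were the 8 genes, 13 family and pathway genes, listed genes between the outermost of the 8, Kdm6b and the 5 genes nearest in profile to the most abundant receptor and ligand. Promoters came from RefSeq (all 9 genes looked up were matched) and coding sequences from GENCODE M21. Protein sequences were not used here, so coding bases were compared by global alignment (Biopython 1.88). Alternatives were other pseudocounts, filters, scalings, a replicate block, no trend, an epithelial covariate and leaving out each library.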

Additional observations from a re-analysis of the deposited data

How the results depend on the processing

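Clec2i and Clec2d kept their direction under every alternative (14 and 13 settings), with log2 fold changes from −0.98 to −0.44 and from 0.25 to 0.79. Their libraries separated by genotype, so only the scalings and the covariate could have turned the sign. The other settings could not, and their number adds no support. Scaled to the T cell genes, Klrb1a, Klrb1, Klrb1f and Kdm6b were at 0.24, 0.25, 0.26 and 0.21, reversed in sign, and the summed Clec2 level in Kdm6b F/F-CD4Cre was 33.1. The summed Klrb1 level then was 142 in Kdm6b F/F and 174 in Kdm6b F/F-CD4Cre. That scaling moved the median of all genes to 0.38, so the 4 fold changes lie below it. With the epithelial score as a covariate, Klrb1a (0.0102), Klrb1 (0.64, unadjusted p 0.0213, adjusted p 0.383 by limma), Klrb1f (0.24), Kdm6b (0.11) and Clec2h (−0.33) also reversed, Klrb1c was 0.56 (unadjusted p 0.0479, adjusted p 0.564 by limma) and Klrb1b 0.68, and 157 genes were called at an adjusted p under 0.05. With 4 libraries and an added term, the covariate fit took the spread of a gene mainly from all genes together, and the cause was not tested.

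Leaving out 1 library gave ranges of −0.31 (without Kdm6b F/F-CD4Cre replicate 1) to −0.0414 (without its replicate 3) for Klrb1a, −0.66 to 0.36 for Klrb1, −0.19 to 0.40 for Klrb1c, −0.40 to 0.20 for Klrb1f, −0.0552 to 0.65 for Klrb1b, −0.0558 to 1.17 for Clec2h and −0.52 to 0.16 for Kdm6b, in which the lone library of a group was assumed to vary like the others. Klrb1c was −0.13 without Kdm6b F/F replicate 3 and −0.19 without Kdm6b F/F-CD4Cre replicate 1. Klrb1 was 0.36 and Klrb1f 0.0067 without Kdm6b F/F replicate 1, and 0.25 and 0.20 without Kdm6b F/F-CD4Cre replicate 3.

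Genes with a log2 fold change above 1 or below −1 numbered 797, against 1381 and 1451 with pseudocounts of 0.1 and 0.01, 1486 scaled to the T cell genes, 453 with the epithelial covariate and 364 to 1577 without 1 library (364 without Kdm6b F/F replicate 1, 1419 without its replicate 3, 1577 without Kdm6b F/F-CD4Cre replicate 1 and 434 without its replicate 3). The share of these that were higher went from 93.4% to 76.8% with the covariate and to 98.3% scaled to the T cell genes, and lay between 81.8% and 89.3% without 1 library.

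Whether equal replicate numbers mark pools prepared together is not stated. The deviations of same-numbered libraries had a correlation of 0.56 across genes. With the replicate block, 1019 genes were called instead of 0, and Clec2i was among them (−0.84, adjusted p 0.0249 by limma). The block changed no call of the other 7 genes. The 2 libraries per genotype and approximate fragment numbers limit what can be seen for low genes such as Klrb1b and Clec2d, which gave no value under the filter of 5 FPKM.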
